A study of Mus musculus with 24 samples.

Results

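The 34 genes described here are markers of macrophages and of antigen presentation by class II molecules of the major histocompatibility complex (MHC). They were listed by symbol, and each was found in the table of raw counts through its Ensembl identifier in the GENCODE mouse annotation. They are 34 of 53700 genes in the table, and 33 of them are among the 24965 genes with enough counts to be tested. The 1 member left out of the tests was Pf4, with 0 to 10 counts per library.

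RNA was sequenced from the retinal pigment epithelium (RPE), the pigmented cell layer behind the photoreceptors, of C57BL/6 mice aged 12 to 16 weeks. The groups were RPE Bmal1 KO and RPE Bmal1 WT at zeitgeber time (ZT) 1, 7, 13 and 19, where lights come on at ZT0 of a 12:12 light:dark cycle, with 3 libraries in each of the 8 groups and 1 mouse per library. In each library, 2 RPE isolates of the mouse were pooled. All mice carried both floxed Bmal1 alleles (Bmal1 fl/fl), and mice of both groups carried Cre under the doxycycline-dependent pair Vmd2-rtTA and TetO-cre, so the deletion is meant for RPE cells and not for macrophages. Doxycycline was fed on postnatal days 60 to 74. By the study's account KO mice ate the doxycycline diet and WT mice a control diet, whereas the sample records name doxycycline food for both genotypes, so effects of the drug and of the deletion cannot be told apart.

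Macrophages are resident phagocytes that live throughout the choroid, the vascular layer under the RPE, where many lie along vessels. Their survival depends on signals through the CSF1 receptor, and they take up debris, sense microbial products, bind antibodies through Fc receptors and recruit further cells through chemokines. Macrophages and dendritic cells also load peptides onto MHC class II molecules and show them to CD4 T cells, with the invariant chain CD74 guiding the class II molecules to the endosome and the coactivator CIITA switching on the class II genes.

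The RPE was collected by sonication of the posterior eye cup, so cells of the choroid, sclera and retina could be present, and fewer macrophages and less RNA per macrophage cannot be told apart in such bulk samples. Total counts ran from 2069527 to 10572612 per library. The 12 RPE markers (Rpe65, Best1 and others) summed to 1724 to 2717 CPM (counts scaled to the library size) in KO and 861 to 3444 CPM in WT libraries. The 16 rod markers summed to 704 to 14923 CPM in KO and 735 to 14078 CPM in WT libraries, and the 16 skeletal muscle markers to 9654 to 45404 CPM in KO and 9429 to 63025 CPM in WT libraries. Arntl, which encodes BMAL1, had 18.9 to 89.5 CPM in KO and 9.35 to 77.3 CPM in WT libraries, and counts over a whole gene do not check the loss of an exon. In 5 libraries, the first replicates of KO at ZT1, ZT7 and ZT13 and of WT at ZT7 and ZT19, genes of olfactory and vomeronasal receptors exceeded 500 plain CPM. Plain CPM are scaled by the total count alone. All other CPM here are scaled by the trimmed mean of M values (TMM), which sets libraries to a common level over most genes.

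The promoters of a pair of class II genes are shown because H2-Aa and H2-Eb1 had the highest Pearson r (0.74) of the pairs of class II genes compared, although by Spearman's rho H2-Aa stood slightly closer to Cd74 (0.68) than to H2-Eb1 (0.67). RefSeq windows from 250 bases before to 50 bases after the start site (GRCm38.p6) were found for 24 of the 34 members, and E-box letters (CACGTG), the core bound by BMAL1 with its partners, were in 0 of the 30 windows of these 24 members, against 7.15% of all 32851 windows, searched on both strands. In the sequences the capitals mark the letters CTNGCAAC of the X box, which 3.42% of all windows hold, and CTGATTGG of the Y box, which 4.1% hold, both searched on both strands. H2-Aa has its window at chr17:34287774-34288073 on the minus strand and H2-Eb1 at chr17:34305617-34305916 on the plus strand, and in both the X box letters come before the Y box letters. Among the members, the Y box letters were also found in Irf8 and the X box letters in Cd163. Letters of the PU.1 motif (GAGGAAG) were in 11 of the 30 member windows, against 13.6% of all windows. These windows belong to 9 of the 24 members, as Fcgr3 and F13a1 each gave more than a single window. Letters of the GAS motif (TTCNNNGAA) were in the windows of Fcgr1 and Irf8, against 8.3% of all windows, again with both motifs searched on both strands. A match of letters is a description of the sequence and not evidence of a bound site.
H2-Aa: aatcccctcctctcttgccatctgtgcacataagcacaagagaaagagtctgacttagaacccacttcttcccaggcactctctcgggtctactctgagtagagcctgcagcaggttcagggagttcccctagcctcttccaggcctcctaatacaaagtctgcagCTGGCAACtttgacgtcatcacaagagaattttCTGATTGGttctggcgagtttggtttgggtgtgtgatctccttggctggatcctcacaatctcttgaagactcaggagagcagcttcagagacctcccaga
H2-Eb1: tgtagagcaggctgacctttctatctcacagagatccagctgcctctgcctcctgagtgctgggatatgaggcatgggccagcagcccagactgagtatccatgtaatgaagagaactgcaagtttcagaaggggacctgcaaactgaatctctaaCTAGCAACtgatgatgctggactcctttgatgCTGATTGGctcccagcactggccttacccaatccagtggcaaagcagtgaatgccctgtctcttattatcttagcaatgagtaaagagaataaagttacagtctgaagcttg

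All 34 genes had counts in these samples. Their sum was 895 to 4823 counts per KO library and 973 to 4503 counts per WT library, at most 0.0511% of a library. Over the 24 libraries, 13 members had a mean of at least 10 CPM and 6 a mean under 2 CPM. By mean CPM per kilobase of exon, 17 of the 34 members stood above the median of protein-coding genes. Per kilobase of exon, Lyz2, the lysozyme of myeloid cells, was first at 49.1 CPM per kilobase, a level above 98.6% of protein-coding genes. Cd74 followed at 14.3 CPM per kilobase, Cd68, a lysosomal membrane glycoprotein of phagocytes, at 14.2, and Fcer1g, the shared signalling chain of Fc receptors, at 10.8. Csf1r, the receptor for CSF1 and IL-34, stood at 7.11 CPM per kilobase, and the class II chains H2-Eb1, H2-Aa and H2-Ab1 lay close together at 6.40, 6.34 and 6.31. The lowest were Clec10a, a lectin of macrophages and dendritic cells, at 0.340 CPM per kilobase, and Fcgr1, the high-affinity receptor for IgG, at 0.559.

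With the 4 time points averaged, 32 of the 33 tested members had a lower value in RPE Bmal1 KO than in RPE Bmal1 WT, against 54.6% of all tested genes, and the median log2 difference was -0.24 over the members and -0.02 over all genes. No single member passed the test (edgeR's quasi-likelihood test, Benjamini-Hochberg adjustment over all genes, adjusted p under 0.05), and no gene of the whole table did, a share of 0%. At an unadjusted p under 0.05 there were 4 members of 33, Fcgr1, Tyrobp, Ccr2 and H2-Eb1, against 6.18% of all genes. All 4 were lower in KO, and 2.24% of all tested genes had both such a p and a lower value in KO. With scaling by library size alone, 24 of 33 members were lower, with a median of -0.03, and so were 5748 of the 24965 genes, with a median of 0.16. DESeq2 and limma-trend also called 0 members, each with 4 at an unadjusted p under 0.05. The 32 lower values were not independent of each other, since the members shared libraries in which they were high or low together. The plot of averaged differences shows the members by role.

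**Figure D1:**
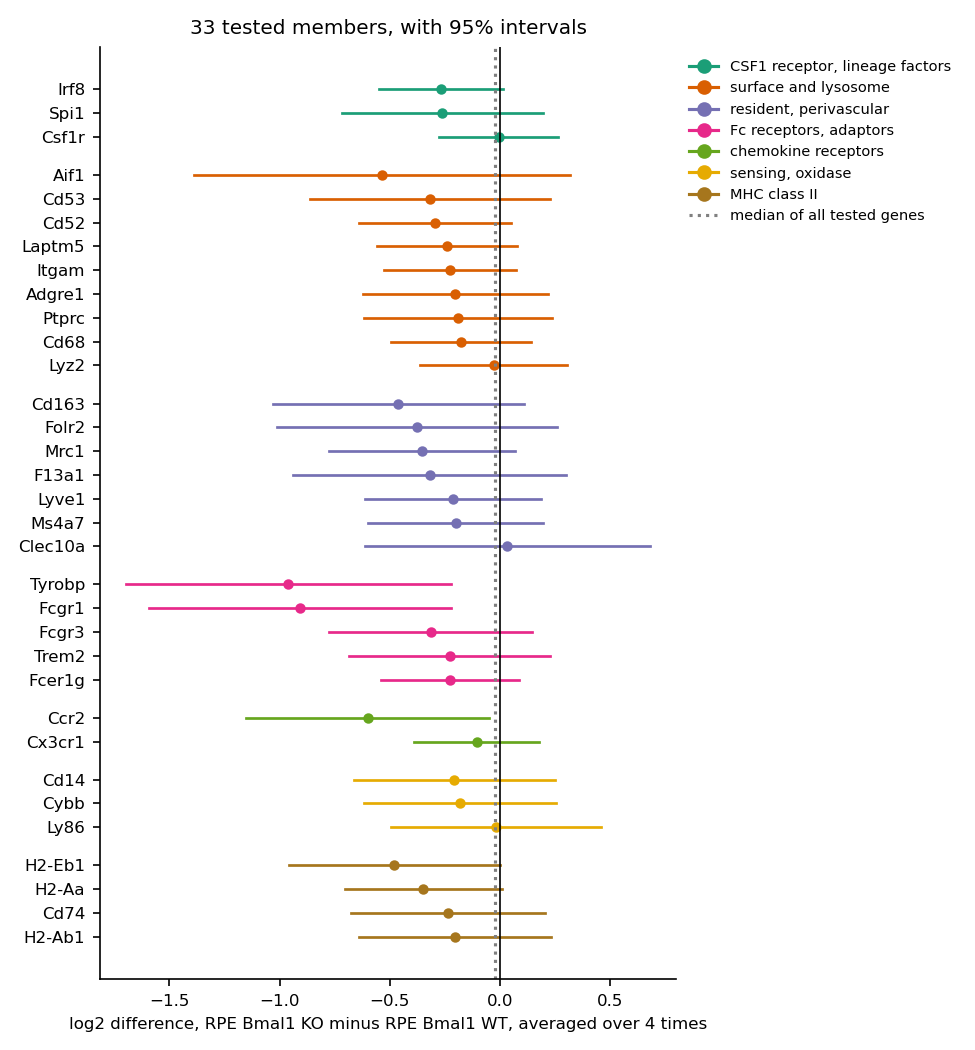
Log2 difference of RPE Bmal1 KO minus RPE Bmal1 WT averaged over the 4 time points (x axis) for the 33 tested members, grouped by role in colour (points are estimates from edgeR, lines 95% intervals, the dotted line the median of all tested genes). Points lie left of 0 for 32 members, and the intervals of Tyrobp, Fcgr1, Ccr2 and H2-Eb1 do not reach 0 before adjustment.

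Fcgr1 and Tyrobp, of the Fc receptors and their adaptors, had the largest averaged differences among the tested members. The median of this group was -0.32, against -0.32 for the resident and perivascular genes and -0.35 for the chemokine receptors. Fcgr1 had 2.32, 1.42 and 1.66 CPM in KO at ZT1, against 1.76, 2.38 and 1.89 CPM in WT. At ZT7 it had 0.407, 0.701 and 0.994 CPM in KO, against 5.10, 1.11 and 0.838 CPM in WT, and the ZT13 values were 0.643, 1.04 and 0.655 CPM in KO, against 1.76, 0.519 and 1.27 CPM in WT. At ZT19 it had 0.785, 0.434 and 0.672 CPM in KO, against 3.98, 1.51 and 0.866 CPM in WT. The KO and WT libraries overlapped at ZT1, ZT7 and ZT13 and did not at ZT19, and the 2 highest values were those of the first WT replicates at ZT7 and ZT19, both rich in receptor-gene counts. The averaged log2 difference of Fcgr1 was -0.91 (standard error 0.33, unadjusted p = 0.0116, adjusted p = 0.758 from edgeR), on 1 to 16 counts per library.

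Tyrobp encodes DAP12, the adaptor through which TREM2 and other receptors of myeloid cells signal. It had 1.03, 1.3 and 1.19 CPM in KO at ZT1, against 1.36, 2.55 and 0.583 CPM in WT, and 0.815, 0.000 and 0.696 CPM in KO at ZT7, against 5.95, 1.56 and 1.92 CPM in WT. At ZT13 there were 1.5, 2.16 and 1.22 CPM in KO, against 1.60, 1.38 and 1.79 CPM in WT. At ZT19 it had 0.471, 1.22 and 1.44 CPM in KO, against 4.48, 1.93 and 1.06 CPM in WT. All KO libraries lay below all WT libraries at ZT7, and at the other times they overlapped. The averaged log2 difference was -0.96 (standard error 0.35, unadjusted p = 0.013, adjusted p = 0.758 from edgeR), with 0 to 25 counts per library. Trem2 itself differed by -0.23, Fcer1g by -0.23 and Fcgr3, a low-affinity receptor for IgG, by -0.32 on the log2 scale, each within 2 standard errors of 0.

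The chemokine receptors differed from each other in size. Ccr2 guides inflammatory monocytes into tissue, and Cx3cr1, the fractalkine receptor, marks resident macrophages and microglia. Ccr2 had 3.86, 2.59 and 1.90 CPM in KO at ZT1, against 3.53, 4.43 and 5.97 CPM in WT, and 6.52, 2.28 and 2.29 CPM in KO at ZT7, against 12.7, 3.12 and 4.79 CPM in WT. It had 3.86, 1.64 and 3.46 CPM in KO at ZT13, against 5.45, 1.56 and 3.8 CPM in WT, and 5.49, 2.34 and 6.14 CPM in KO at ZT19, against 7.46, 6.60 and 5.58 CPM in WT. The groups overlapped at all 4 times, and the highest of the 24 values was the first WT replicate at ZT7. The averaged log2 difference was -0.60 for Ccr2 (standard error 0.27, unadjusted p = 0.0341, adjusted p = 0.773 from edgeR) and -0.11 for Cx3cr1 (standard error 0.14).

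The class II genes all had negative differences. H2-Aa, the alpha chain of I-A, had 27.6, 18.6 and 16.1 CPM in KO at ZT1, against 20.1, 19.4 and 36.3 CPM in WT, and 15.5, 11.6 and 19.9 CPM in KO at ZT7, against 45.0, 24.3 and 21.6 CPM in WT. The values at ZT13 were 28.1, 15.7 and 23.8 CPM in KO, against 25.6, 14.5 and 21.6 CPM in WT, and at ZT19 it had 32.3, 19.6 and 24.8 CPM in KO, against 23.6, 43.5 and 29.0 CPM in WT. All KO values lay below all WT values at ZT7 only. H2-Eb1, the beta chain of I-E, had 9.79, 12.2 and 3.8 CPM in KO at ZT1, against 9.77, 11.1 and 18.1 CPM in WT, and 11.8, 4.03 and 15.5 CPM in KO at ZT7, against 22.9, 11.1 and 16.2 CPM in WT. It had 10.9, 6.40 and 13.5 CPM in KO at ZT13, against 16.8, 8.47 and 14.1 CPM in WT, and 10.99, 8.68 and 16.8 CPM in KO at ZT19, against 9.95, 19.3 and 16.3 CPM in WT. The groups of H2-Eb1 overlapped at each time. The averaged log2 difference was -0.48 for H2-Eb1 (standard error 0.23, unadjusted p = 0.0492, adjusted p = 0.805 from edgeR) and -0.35 for H2-Aa (standard error 0.17, unadjusted p = 0.0541).

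Cd74 and H2-Ab1, the beta chain of I-A, showed smaller averaged differences. Cd74 had 21.6, 25.0 and 26.1 CPM in KO at ZT1, against 21.4, 14.1 and 30.3 CPM in WT, and 4.48, 8.76 and 20.8 CPM in KO at ZT7, against 51.0, 16.7 and 19.3 CPM in WT. At ZT13 it had 24.4, 21.5 and 30.0 CPM in KO, against 30.5, 14.9 and 24.3 CPM in WT, and at ZT19 it had 23.5, 25.1 and 36.2 CPM in KO, against 21.4, 32.7 and 32.1 CPM in WT. The lowest of the 24 values were in KO at ZT7 and the highest was the first WT replicate at ZT7. H2-Ab1 had 20.4, 13.9 and 14.8 CPM in KO at ZT1, against 12.9, 10.4 and 18.4 CPM in WT, and 9.37, 10.9 and 13.4 CPM in KO at ZT7, against 48.4, 10.7 and 14.9 CPM in WT. It had 14.6, 13.2 and 17.7 CPM in KO at ZT13, against 15.4, 10.4 and 15.8 CPM in WT, and 9.89, 11.8 and 26.8 CPM in KO at ZT19, against 14.9, 19.5 and 20.6 CPM in WT. The genotypes overlapped at every time point for both genes. The averaged log2 difference was -0.24 for Cd74 (standard error 0.21) and -0.21 for H2-Ab1 (standard error 0.21), and that of H2-Ab1 was 0.03 with scaling by library size alone. Without the first WT replicate at ZT7 the difference was -0.10 for Cd74 and -0.02 for H2-Ab1, and without the third KO replicate at ZT7 that of Cd74 was -0.43. Without the third KO replicate at ZT19 that of H2-Ab1 was -0.35.

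Csf1r and Lyz2, among the most abundant members, had averaged differences close to 0. Csf1r had 36.6, 48.8 and 41.8 CPM in KO at ZT1, against 51.6, 40.7 and 39.8 CPM in WT, and 22.4, 33.5 and 43.9 CPM in KO at ZT7, against 51.0, 28.7 and 53.8 CPM in WT. The ZT13 libraries had 31.7, 46.2 and 49.0 CPM in KO, against 38.5, 30.3 and 48.2 CPM in WT. At ZT19 it had 45.4, 43.7 and 48.4 CPM in KO, against 32.1, 35.6 and 43.7 CPM in WT. KO and WT libraries overlapped at ZT1, ZT7 and ZT13, while at ZT19 every KO library lay above every WT library, against 2.35% of all genes. The lowest KO value there was 43.74 CPM and the highest WT value 43.66 CPM. The averaged log2 difference of Csf1r was -0.01 with a 95% interval of -0.28 to 0.26, and under 4 other settings, library size alone among them (0.19), the sign was positive. Csf1r shares exon bases with Hmgxb3 on the opposite strand, so its counts are uncertain where strand was not used.

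Lyz2 had 59.2, 65.9 and 52.5 CPM in KO at ZT1, against 79.0, 37.5 and 50.1 CPM in WT, and 48.9, 51.4 and 72.0 CPM in KO at ZT7, against 122, 60.8 and 74.4 CPM in WT. Its values at ZT13 were 55.3, 55.0 and 77.2 CPM in KO, against 61.7, 30.6 and 62.4 CPM in WT, and at ZT19 it had 82.6, 51.7 and 87.9 CPM in KO, against 51.0, 85.0 and 75.8 CPM in WT. The genotypes overlapped at each time, and the averaged log2 difference was -0.03 (95% interval -0.36 to 0.30), with a positive sign under 5 other settings, from 0.00 with limma-trend and with scaling without mitochondrial, receptor, rod, muscle and lens genes to 0.20 with library size alone. Cd68 had 18.5, 22.8 and 17.3 CPM in KO at ZT1, against 14.1, 20.3 and 28.8 CPM in WT, and 18.7, 15.8 and 13.1 CPM in KO at ZT7, against 12.7, 16.7 and 27.3 CPM in WT. It had 13.1, 19.9 and 22.6 CPM in KO at ZT13, against 20.2, 12.97 and 19.3 CPM in WT, and 9.42, 18.6 and 13.2 CPM in KO at ZT19, against 17.7, 16.0 and 19.9 CPM in WT. No time point separated the genotypes for Cd68, and its averaged log2 difference was -0.18 (95% interval -0.49 to 0.14), or -0.08 without the third WT replicate at ZT7. Of the 9 surface and lysosome genes, which include Adgre1 (F4/80), Ptprc (CD45) and Laptm5, all 9 had a negative averaged difference, from -0.54 for Aif1 to -0.03 for Lyz2, and none had an unadjusted p under 0.05. Aif1 had a standard error of 0.41, so that its interval of -1.39 to 0.32 is among the widest. Among the others, Itgam differed by -0.23, Laptm5 by -0.24, Cd53, a tetraspanin of leukocytes, by -0.32, Cd52, a small surface glycoprotein of leukocytes, by -0.30, Adgre1 by -0.20 and Ptprc by -0.19. Cd52, Cx3cr1, Folr2 and F13a1 share exon bases with genes on the opposite strand, as Csf1r does, so their counts are uncertain too.

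Among the genes of resident and perivascular macrophages, 6 of 7 tested members had a negative averaged difference, with a median of -0.32. Mrc1, the mannose receptor CD206, had 17.5, 14.9 and 9.86 CPM in KO at ZT1, against 12.9, 17.4 and 16.6 CPM in WT, and 18.3, 7.71 and 9.24 CPM in KO at ZT7, against 34, 18.7 and 11.4 CPM in WT. At ZT13 it had 13.9, 6.40 and 13.2 CPM in KO, against 18.8, 8.13 and 9.5 CPM in WT, and at ZT19 it had 19.2, 12.8 and 11.6 CPM in KO, against 15.7, 22.3 and 15.4 CPM in WT. The genotypes overlapped at each time, and the averaged log2 difference was -0.35 (standard error 0.20, unadjusted p = 0.0947). Cd163, the scavenger receptor for haptoglobin and haemoglobin complexes, differed by -0.46 (standard error 0.27). Folr2, a folate receptor of resident macrophages, differed by -0.38 (standard error 0.31), F13a1 by -0.32 (standard error 0.30), Lyve1 by -0.21 (standard error 0.19) and Ms4a7 by -0.20 (standard error 0.19), and Clec10a was the 1 member above 0, at 0.03 (standard error 0.31).

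The lineage factors and the genes of innate sensing had small differences too. Spi1, which encodes PU.1, the transcription factor that sets up the myeloid lineage, differed by -0.26 (standard error 0.22), or by -0.10 without the first WT replicate at ZT7, and Irf8, its partner in monocytes, by -0.27 (standard error 0.14). Cd14, a co-receptor for lipopolysaccharide, differed by -0.21 (standard error 0.22), Cybb, the catalytic chain of the phagocyte oxidase, by -0.18 (standard error 0.21), and Ly86, the partner of RP105, by -0.02 (standard error 0.23). No unadjusted p in these groups was under 0.05.

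**Figure D2:**
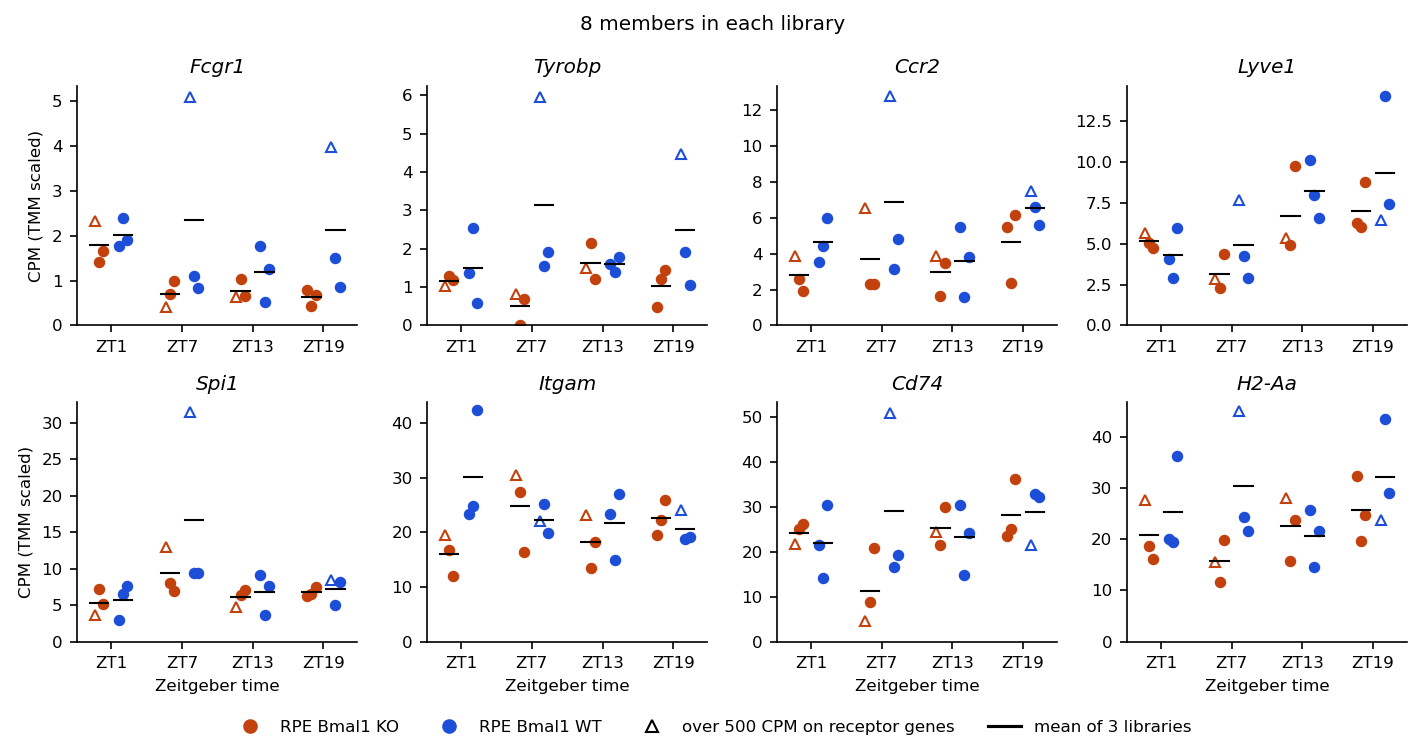
TMM-scaled CPM of 8 members (1 panel each, y axis) in each library by ZT (x axis), with RPE Bmal1 KO left of RPE Bmal1 WT. Bars are at the mean of 3 libraries, and open triangles mark libraries over 500 plain CPM on receptor genes. The first WT replicate at ZT7 was the highest point for Fcgr1, Tyrobp, Ccr2, Spi1, Cd74 and H2-Aa, and Itgam in WT at ZT1 and Lyve1 in WT at ZT19 had their highest points elsewhere.

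At single time points the members' differences varied in size, and again none passed the adjusted threshold. At ZT1 the median log2 difference was -0.18 with 26 of 33 members lower in KO, against 48% of all genes, and 1 member had an unadjusted p under 0.05, against 9.67% (3.12% with a lower value in KO). At ZT7 the median was -0.55 with 31 members lower, against 53.5%, and 6 had an unadjusted p under 0.05, all lower, against 4.21% (2.43% with a lower value in KO). At ZT13 the median was 0.11 with 11 members lower, against 52.2%, and 0 had an unadjusted p under 0.05, against 0.605% (0.256% with a lower value in KO). At ZT19 the median was -0.31 with 27 members lower, against 53.1%, and 1, Fcgr1, had an unadjusted p under 0.05, against 2.34% (2.06% with a lower value in KO). The members' median was thus below 0 at ZT1, ZT7 and ZT19 and above 0 at ZT13. No gene of the whole table passed the adjusted threshold in edgeR at any of the 4 times (0%), and DESeq2 called 0 members at each of them. Scaling by library size alone moved the median of all genes at ZT1 to 0.30 and that of the members to 0.08, with 15 of 33 members lower, a difference of -0.22 relative to all genes. With the same scaling 6 of 33 members were lower at ZT13, and so were 5610 of the 24965 genes. At ZT1 it left 6131 of the 24965 genes lower.

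Single libraries set several of these values. The first WT replicate at ZT7 was the shallowest of the 24, had a TMM factor of 0.569 and 41.7% of its counts on mitochondrially encoded genes, and held the highest CPM of 26 of the 34 members. In 28 of the 34 members its CPM lay above both other WT libraries at ZT7, against 38.8% of all tested genes. Relative to the mean of those libraries, its median fold was 2.73 over the members and 0.93 over all tested genes. In KO libraries the members summed to 307 to 463 CPM, against 827 CPM in this WT library and 262 to 509 CPM in the other WT libraries. As plain CPM, with no TMM factor, they summed to 470 in this library, against 352 to 456 in KO libraries and 277 to 511 in all WT libraries. Without this library the ZT7 median was -0.22 with 22 of 33 members lower, and the averaged median was -0.15 with 29 lower. Without the second WT replicate at ZT13, in which the members summed to 262 CPM, the ZT13 median was -0.08 with 22 lower. Without the first WT replicate at ZT1 the ZT1 median was -0.31 with 25 lower, and without the second KO replicate at ZT19 the ZT19 median was -0.15 with 25 lower. Without all 5 libraries rich in receptor counts, the averaged median was -0.22 with 27 members lower and the ZT7 median -0.25 with 28 lower. The part of mitochondrial and receptor-gene counts in the differences was not tested. Markers of other cells also differed at the single times, with no gene past the adjusted threshold. At ZT7 all 11 tested lens markers were lower in KO (median log2 difference -3.07). Of these, 6 had an unadjusted p under 0.05, against 4.21% of all genes. Also lower were all 8 dendritic cell markers (median -1.57), all 4 tested neutrophil markers (median -2.38) and 4 of 5 tested T and NK cell markers (median -1.51). The first WT replicate at ZT7 had 125 CPM on the neutrophil list, against 13.1 and 8.74 CPM in the other WT libraries at ZT7. On the T and NK cell list it had 55.2 CPM, against 5.79 and 6.71 CPM. On the dendritic list it had 73.1 CPM, against 34.5 and 27.5 CPM, and on the lens list 2426 CPM, against 209 and 172 CPM. KO libraries at ZT7 had at most 11.4, 13.9, 30.6 and 73.9 CPM on these lists in turn. At ZT1 all 16 rod markers (median 2.49) and all 11 lens markers (median 4.48) were higher in KO, and all 15 muscle markers were lower (median -1.61). At ZT13 the lens markers had a median of -2.31 (11 of 11 lower), the dendritic cell markers 0.45 and the neutrophil markers 0.95. The lens list summed to 5506 CPM in the first WT replicate at ZT13, against 154 and 18.3 CPM in the other WT libraries at ZT13. In KO at ZT13 it summed to 90.7 to 427 CPM. At ZT19 the neutrophil markers had a median of -2.84 (3 of 4 lower), the dendritic cell markers -0.68 (7 of 8 lower) and the rod markers 0.76 (16 of 16 higher).

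**Figure D3:**
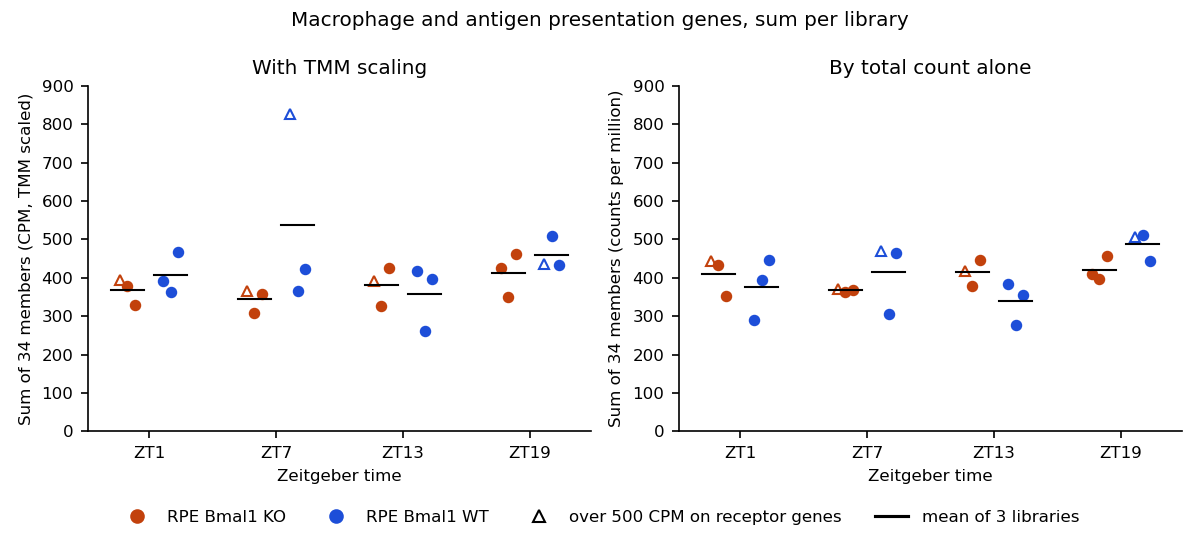
Sum of the 34 members per library by ZT (x axis), as TMM-scaled CPM (left panel) and as plain CPM with no TMM factor (right panel), with RPE Bmal1 KO left of RPE Bmal1 WT and bars at the mean of 3 libraries. The first WT replicate at ZT7 stands at 827 CPM with TMM scaling and at 470 CPM with no TMM factor, inside the range of the other libraries.

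At ZT7 the 6 members with an unadjusted p under 0.05 were Tyrobp, Cd74, Laptm5, H2-Aa, H2-Ab1 and Cd14, all lower in KO. Tyrobp differed by -2.42 on the log2 scale (standard error 0.81, unadjusted p = 0.00677, adjusted p = 0.931 from edgeR) and Cd74 by -1.18 (standard error 0.45, unadjusted p = 0.0146, adjusted p = 0.931 from edgeR). In 3 members, Tyrobp, H2-Aa and Laptm5, a lysosomal protein of leukocytes, every KO library at ZT7 lay below every WT library, against 3.67% of all genes, and in 0 members above, against 3.68%. Leaving out a library cannot undo such an order, so its absence is no check of it. The lowest WT and highest KO values at ZT7 were 21.6 and 19.9 CPM for H2-Aa and 1.56 and 0.815 CPM for Tyrobp. For Laptm5 they were 22.7 and 21.8 CPM.

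At ZT1 the member with an unadjusted p under 0.05 was Itgam, which encodes CD11b, the alpha chain of complement receptor 3. It had 19.6, 16.8 and 12.0 CPM in KO at ZT1, against 23.4, 24.9 and 42.4 CPM in WT, and 30.6, 27.3 and 16.5 CPM in KO at ZT7, against 22.1, 25.2 and 19.9 CPM in WT. At ZT13 the values were 23.2, 18.2 and 13.6 CPM in KO, against 23.4, 14.9 and 27.1 CPM in WT, and at ZT19 it had 19.6, 22.2 and 26.0 CPM in KO, against 24.1, 18.8 and 19.1 CPM in WT. All KO libraries lay below all WT libraries at ZT1 and overlapped them at the later times. The log2 difference at ZT1 was -0.91 (standard error 0.29, unadjusted p = 0.00451, adjusted p = 0.336 from edgeR). Itgam shares 3450 exon bases with Gm49368 on the same strand, so its counts are uncertain. Cd53 and Fcer1g also had every KO library at ZT1 below every WT library, which makes 3 of 33 members, against 9% of all genes, and 0 members had the reverse, against 10.9%. At ZT19 this held for 4 members, Cd163, Fcgr1, Fcgr3 and Irf8, against 2.99%, and the reverse for Csf1r alone, against 2.35%, and at ZT13 for none in either direction, against 1.56% below and 2.21% above.

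**Figure D4:**
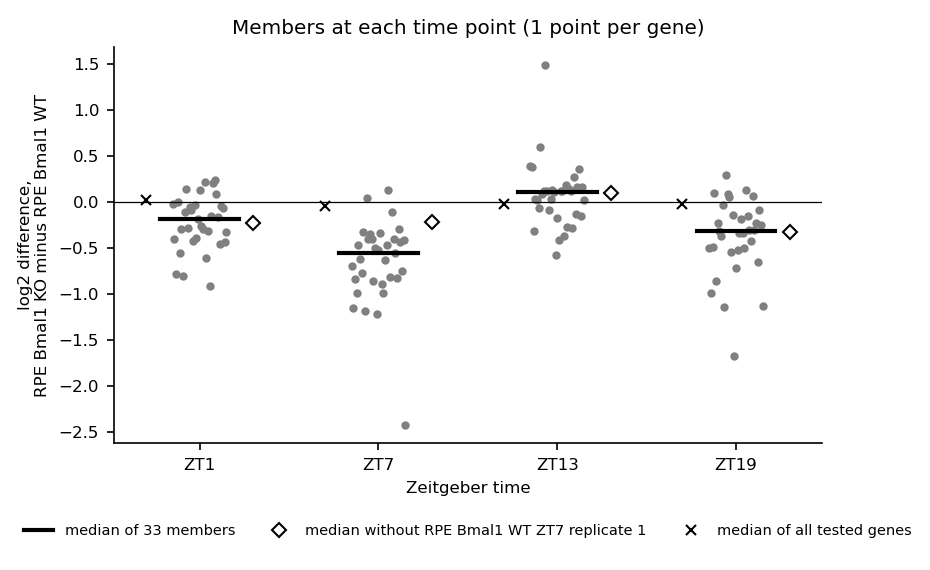
Log2 difference of RPE Bmal1 KO minus RPE Bmal1 WT (y axis) for the 33 tested members (1 grey point per gene) at each ZT (x axis), with bars at the members' medians, crosses at the medians of all tested genes and open diamonds at the members' medians without the first WT replicate at ZT7. The medians run from -0.18 at ZT1 through -0.55, 0.11 and -0.31, and the ZT7 median without that library is -0.22.

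Over the day, no member passed the test for time. Within KO, 0 members were called, against 0.00801% of all genes (2 genes), and 3 had an unadjusted p under 0.05, against 2.07%. Within WT, 0 were called, against 0%, and 1 had an unadjusted p under 0.05, against 2.47%. Over both genotypes together, 0 were called, against 0.0361%, and 3 had an unadjusted p under 0.05, against 2.96%. DESeq2 called 50, 18 and 70 genes of the whole table in these tests and none of the members, with 2, 3 and 3 members at an unadjusted p under 0.05.

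Lyve1, a hyaluronan receptor of perivascular macrophages and lymphatic vessels, had the smallest p for time in each of these tests. It had 5.67, 5.05 and 4.75 CPM in KO at ZT1, against 4.07, 2.89 and 5.97 CPM in WT, and 2.85, 2.28 and 4.37 CPM in KO at ZT7, against 7.65, 4.23 and 2.87 CPM in WT. Lyve1 values at ZT13 were 5.36, 4.93 and 9.73 CPM in KO, against 10.1, 7.96 and 6.54 CPM in WT, and at ZT19 it had 6.28, 5.99 and 8.74 CPM in KO, against 6.47, 14.0 and 7.41 CPM in WT. The means were highest at ZT19 in both genotypes, 7.0 ± 1.51 CPM in KO and 9.30 ± 4.12 CPM in WT (SD, n = 3 each), and lowest at ZT7 in KO (3.17 ± 1.08 CPM) and at ZT1 in WT (4.31 ± 1.55 CPM). The unadjusted p for time was 0.033 in KO, 0.0326 in WT and 0.00158 over both, and the adjusted p over both was 0.648 from edgeR. Its averaged genotype difference, -0.21, was -0.12 without the second WT replicate at ZT19.

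Spi1 had the next smallest p over both genotypes (unadjusted p = 0.0121, adjusted p = 1 from edgeR). Its values were 3.61, 7.25 and 5.11 CPM in KO at ZT1, against 2.99, 6.47 and 7.57 CPM in WT, and 13.04, 8.06 and 6.96 CPM in KO at ZT7, against 31.4, 9.35 and 9.46 CPM in WT. At ZT13 it had 4.72, 6.40 and 7.11 CPM in KO, against 9.14, 3.63 and 7.60 CPM in WT, and at ZT19 it had 6.28, 6.51 and 7.49 CPM in KO, against 8.46, 4.95 and 8.18 CPM in WT. The means were highest at ZT7 in both genotypes, 9.35 ± 3.24 CPM in KO and 16.8 ± 12.7 CPM in WT (SD, n = 3 each), and in both the first replicate, rich in receptor counts, was the highest of its group at that time. Cd74 had the second smallest p for time within KO (unadjusted p = 0.0408, adjusted p = 1 from edgeR), with its lowest mean there at ZT7, 11.3 ± 8.44 CPM, and its highest at ZT19, 28.3 ± 6.90 CPM.

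Whether the course over the day differed between the genotypes was tested directly, and 0 members were called, against 0% of all genes, with 0 members at an unadjusted p under 0.05, against 2.03%. The smallest p values were those of Itgam (unadjusted p = 0.0559) and Cd74 (unadjusted p = 0.128), both with an adjusted p of 1 from edgeR. DESeq2 called 0 members and had 0 at an unadjusted p under 0.05, and limma-trend called 0 and had 1.

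Of the 15 genes of the CSF1 axis and other myeloid factors, 12 were lower in KO in the averaged comparison, against 54.6% of all tested genes. Their median log2 difference was -0.18. Csf1, which encodes a ligand of the CSF1 receptor, had 28.3 to 61.5 CPM in KO (median 44.8) and 39.4 to 63.8 CPM in WT (median 48.6), a log2 difference of -0.20 (standard error 0.13). Il34, the other ligand, had 4.48 to 16.0 CPM in KO (median 11.1) and 7.28 to 17.9 CPM in WT (median 13.5), a log2 difference of -0.24 (standard error 0.17). Ciita had 8.32 to 14.9 CPM in KO (median 11.7) and 9.13 to 24.6 CPM in WT (median 11.1), a log2 difference of -0.06 (standard error 0.13), with its highest value in the first WT replicate at ZT7, so that its KO median stood above its WT median while the difference was below 0. Ciita and Il34 share exon bases with genes on the opposite strand. At ZT19 every KO value of Csf1 (31.4, 45.1 and 47.5 CPM) lay below every WT value (48.5, 50.9 and 48.0 CPM). This order held for 2.99% of all genes at ZT19. Ciita at ZT1 had every KO value (14.9, 11.3 and 13.3 CPM) above every WT value (10.6, 10.7 and 11.1 CPM). That order held for 10.9% of all genes at ZT1. All other group pairs of these genes overlapped, and none passed the test.

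Other lists of the pathway and of neighbouring cell types were compared in the same fit, and no gene of any of them passed the adjusted threshold in any test. Averaged over time, 24 of 29 further phagocyte genes (oxidase subunits, complement and scavenger receptors) were lower in KO with a median log2 difference of -0.26, and 11 of 12 chemokines and receptors with a median of -0.20. Of the class II processing genes (H2-DM, H2-O, Ctss and others) 10 of 14 were lower with a median of -0.09, and of the class I genes also 10 of 14 with a median of -0.12. Over all tested genes 54.6% were lower, with a median of -0.02. All 8 markers of dendritic cells were lower, with a median of -0.35, and 7 of 9 markers of microglia, with a median of -0.08. Dendritic markers summed to 21.5 to 39.9 CPM in KO and 27.5 to 73.1 CPM in WT, and none of the 8 was at 0 in all libraries of a genotype. Markers of T and NK cells summed to 5.24 to 21.6 CPM in KO and 4.49 to 55.2 CPM in WT.

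Markers of tissues beside the RPE also differed in the averaged comparison. All 16 rod markers were higher in KO, with a median log2 difference of 1.05, and 15 of them had an unadjusted p under 0.05. All 15 tested skeletal muscle markers were lower in KO, with a median of -0.62. Over all tested genes 6.18% had such a p and 54.6% were lower in KO. Of the endothelial markers 12 of 14 were lower (median -0.17), of the fibroblast markers 4 of 9 (median 0.02) and of the RPE markers 3 of 12 (median 0.14). All 11 tested lens markers (median -0.34) and all 4 tested neutrophil markers (median -0.67) were lower, and so were 3 of 4 tested B cell markers (median -0.52) and 4 of 6 tested mast cell markers (median -0.24). The part of such differences in tissue makeup in the members' values was not tested.

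Across the 24 libraries, 18 pairs of genes were compared by the correlation of log2 CPM (permutation tests, two-sided, Benjamini-Hochberg adjustment over the 18). These values share the library and its scaling factor, so a library that is high for both genes of a pair can raise their r. The Pearson r of H2-Aa with H2-Eb1 was 0.74 (permutation p = 7e-05, adjusted p = 0.00072) and Spearman's rho was 0.67 (permutation p = 0.00066, adjusted p = 0.00284), and r was 0.61 without the 2 libraries farthest from the median, 0.62 within KO, 0.86 within WT and 0.74 for deviations from the 8 group means. H2-Aa with Cd74 gave an r of 0.69 (permutation p = 0.00015, adjusted p = 0.0009) and a rho of 0.68 (permutation p = 0.00044, adjusted p = 0.00284), with 0.55 without 2 libraries, 0.58 within KO and 0.86 within WT. H2-Aa with H2-Ab1 gave an r of 0.66 (permutation p = 0.00036, adjusted p = 0.00162) and a rho of 0.65 (permutation p = 0.00079, adjusted p = 0.00284), with 0.52 without 2 libraries, 0.39 within KO and 0.81 within WT, and without the 5 libraries rich in receptor counts r was 0.496 and no longer past the threshold (adjusted permutation p = 0.0945). For H2-Aa with Ciita, r was 0.47 (permutation p = 0.0201, adjusted p = 0.0452) and rho 0.33 (permutation p = 0.111, adjusted p = 0.222), and r was 0.27 without 2 libraries, 0.08 within KO, 0.72 within WT and 0.12 without the 5 libraries rich in receptor counts, so that this relation does not hold without a few libraries.

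Among genes of perivascular macrophages, Mrc1 with F13a1, a transglutaminase of resident macrophages, gave an r of 0.76 (permutation p = 8e-05, adjusted p = 0.00072) and a rho of 0.66 (permutation p = 0.00062, adjusted p = 0.00284), with 0.63 without 2 libraries, 0.64 within KO and 0.86 within WT. Mrc1 with Cd163 gave an r of 0.63 (permutation p = 0.00085, adjusted p = 0.00306) and a rho of 0.52 (permutation p = 0.0106, adjusted p = 0.0319), with 0.44 without 2 libraries, and without the 5 libraries rich in receptor counts r was 0.497 (adjusted permutation p = 0.0945). Mrc1 with Lyve1 gave an r of 0.30 (permutation p = 0.158, adjusted p = 0.284) and a rho of 0.27 (permutation p = 0.196, adjusted p = 0.352).

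The correlations of Csf1r with other members were uneven. Its r was 0.56 with Lyz2 (permutation p = 0.00403, adjusted p = 0.0104; rho 0.65, permutation p = 0.00069, adjusted p = 0.00284) and 0.65 with Cd74 (permutation p = 0.00107, adjusted p = 0.00321), but rho with Cd74 was 0.37 (permutation p = 0.0773, adjusted p = 0.174) and r was 0.40 without 2 libraries, 0.85 within KO and 0.38 within WT. Without the 5 libraries rich in receptor counts neither passed the threshold, with an r of 0.526 for Lyz2 (adjusted permutation p = 0.0943) and 0.431 for Cd74 (adjusted permutation p = 0.17). With Adgre1, Cd68, Mrc1 and Tyrobp the r of Csf1r was 0.16, 0.11, -0.11 and 0.19, with rho 0.05, 0.17, -0.21 and 0.14, and no adjusted p was under 0.05, the smallest permutation p among them being 0.331. With markers of other cells, r was 0.12 for Pecam1 of endothelium, -0.12 for Col1a1 of fibroblasts, -0.03 for Rpe65 and 0.43 for Acta1 of muscle, with rho 0.10, -0.13, -0.10 and 0.44, the smallest adjusted p being 0.0758 from the permutation test.

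**Figure D5:**
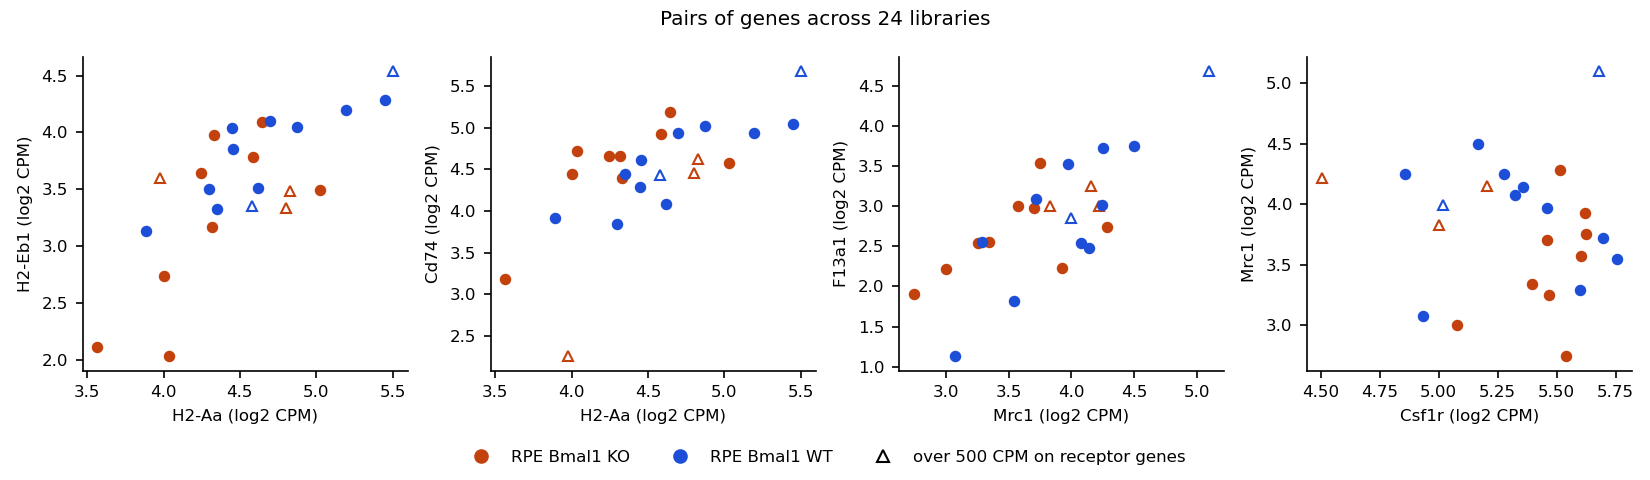
Log2 CPM of pairs of genes in the 24 libraries (1 point per library, RPE Bmal1 KO and RPE Bmal1 WT by colour). Open triangles mark libraries over 500 plain CPM on receptor genes. H2-Aa with H2-Eb1 (r = 0.74), H2-Aa with Cd74 (r = 0.69) and Mrc1 with F13a1 (r = 0.76) run upward, whereas Csf1r with Mrc1 (r = -0.11) does not.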

How the data were processed

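The authors aligned reads to mm10 and deposited whole-number HTSeq counts per gene, without normalization (Bowtie2 2.3.4 and HTSeq 0.9.1 in the submitters' processing notes). The library kit keeps strand, but whether counting used strand is not given in the sources used here. Columns were joined to samples by the diet (control for WT, doxycycline for KO), time and replicate in their names, and 11 further columns that name no sample were not used. Of 53700 identifiers, 52147 matched GENCODE release 21. From these counts, TMM-scaled CPM were computed as levels, on the log2 scale with a prior count of 2, and low genes were removed with filterByExpr (8 groups, minimum count 10). Tests were quasi-likelihood F-tests in edgeR 4.0.16 (R 4.3.3) with Benjamini-Hochberg adjustment over 24965 genes at 0.05, within each genotype for time and over all 24 libraries otherwise, and were tested on simulated data. Depth limits precision, as members had 895 to 4823 counts per library in sum. No 2 libraries of a group agreed within sampling noise. The p-values measure the spread between single mice.

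The members, gene lists and limits were chosen with earlier results of these data known. Values in every library are given for members with the smallest unadjusted p (3 in the averaged test, 2 in each time test and in the test of courses) and for 10 members by role. The libraries rich in receptor counts were set apart at 500 plain CPM, with no TMM factor. Alternatives were other scalings (median of ratios, library size alone, and without mitochondrial, receptor, rod, muscle and lens genes), other filters, DESeq2 1.42.0, limma-trend (limma 3.58.1), protein-coding genes only, a block for replicate number, and fits in which libraries were left out. Correlations used 100000 permutations. The result of 1 of the pairs, kept in the adjustment, is not reported here.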

Additional observations from a re-analysis of the deposited data

How the results depend on the processing

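The number of members called stayed at 0 in each of the 9 tests under every setting that was run. The median ZT7 difference, -0.55, was -0.19 with library size alone and ran from -0.83 to -0.22 when libraries were left out in turn, the value nearest 0 being that without the first WT replicate at ZT7. Library size alone also moved the median of all genes by over 0.1, to 0.16 in the averaged test and 0.28 at ZT7, and relative to it the members' medians were -0.20 and -0.47. The averaged difference of Csf1r, -0.01, was 0.19 with library size alone, 0.021 with scaling without mitochondrial, receptor, rod, muscle and lens genes, 0.045 with no filter on low counts and 0.10 without the 5 libraries rich in receptor counts, and ran from -0.084 to 0.050 with single libraries left out. That of Lyz2, -0.03, was 0.20, 0.0015, 0.023 and 0.036 under the same 4 settings and 0.0041 with limma-trend, and ran from -0.098 to 0.037, and that of H2-Ab1, -0.21, was 0.027 with library size alone. For these the cause was not tested. Without the 5 libraries rich in receptor counts, r was 0.431 for Csf1r with Cd74 (adjusted permutation p = 0.17), 0.526 for Csf1r with Lyz2 (0.0943), 0.496 for H2-Aa with H2-Ab1 (0.0945), 0.119 for H2-Aa with Ciita and 0.497 for Mrc1 with Cd163 (0.0945), no longer past 0.05, with 19 libraries in place of 24. There, r was 0.006 for Csf1r with Col1a1 and 0.251 for Csf1r with Rpe65, which had negative values over all libraries. With library size alone, r was -0.007 for Csf1r with Pecam1, 0.304 for Csf1r with Rpe65 and 0.332 for H2-Aa with Ciita. The replicate numbers were not taken to pair the samples, since no source ties them to a shared batch. The data did hold hints of such a batch. Deviations correlated at over 0.1 in 45 of 84 pairs of libraries with the same number, against 54 of 168 pairs with different numbers. The median correlation was 0.16 for the same number and -0.05 for different numbers. Also, 14 of 24 libraries correlated best with those of their own number, and the 5 libraries rich in receptor counts were all first replicates. With the replicate block 0 members were called in each test, the averaged median was -0.24 and 6 members had an unadjusted p under 0.05 in place of 4. Over the whole table it called 46 genes in place of 2 for time in KO and 11 in place of 9 for time over both genotypes. Depth limits the low members most, such as Tyrobp with 0 to 25 counts per library.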
